A study of Homo sapiens with 24 samples.

Results

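Translation initiation and elongation factors are the proteins that load ribosomes onto messenger RNA, find the start codon and move the ribosome along the reading frame. Their mRNA levels were followed in RBE and SNU1079, a pair of human cholangiocarcinoma cell lines that the labels describe as IDH1 mutant with high SULT1A1. Cells were treated with YC-1, a small molecule first described as a stimulator of soluble guanylate cyclase, or with the solvent DMSO, for 6 h or 16 h. The 8 groups were YC-1 at 6 h, YC-1 at 16 h, DMSO at 6 h and DMSO at 16 h in each line, with 3 libraries in each group. The design text calls the libraries of a group biological replicates, and the labels give no dose. Each line is a single established culture, so differences between the lines are differences between these 2 cultures. The series' title concerns the sensitivity of liver-lineage cancer cells to sulfonation-dependent alkylators.

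Genes were taken from the deposited table when the symbol began with EIF1 to EIF6 or with EEF, held no hyphen, did not begin with EIF2AK, did not end in P plus digits, and when the mean over all 24 libraries was at least 50. Of 57820 rows, 203 began in this way, 3 of them with a hyphen, 4 were eIF2 kinases and 135 ended like pseudogenes. That left 61 genes, of which 60 reached the minimum. The genes were thus chosen by name and selected on 1 measured value, the mean over all libraries, which does not compare groups. EEF1AKMT1 lay just inside it at a mean of 111 and EIF4E1B just outside at 0.780. All 60 also passed the filter for testing, a normalised count of at least 10 in at least 3 libraries, which 17860 genes passed. The rule on endings leaves out EIF4EBP1, EIF4EBP2 and EIF4EBP3, which encode the binding proteins of eIF4E. EIF1AY is counted among the 60, and its values are not given. Levels below are the authors' normalised counts, and a difference is a log2 fold change on the scale of log2(normalised count + 1), given with its standard error (SE). Each SE rests on 1 spread per gene shared by all 8 groups, not on the groups compared. The median SD in percent of the mean, EIF1AY and EIF3CL aside, was 3.74% to 6.43% in the RBE groups. In SNU1079 it was 5.15% and 8.94% with DMSO at 6 h and 16 h, and 12.5% and 14% with YC-1. SE and adjusted p can thus be too small for SNU1079 with YC-1 and too large for RBE.

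Initiation starts when eIF2 brings the initiator tRNA to the small ribosomal subunit, which also carries eIF1, eIF1A, eIF3 and eIF5. The eIF4F complex, made of the cap-binding protein eIF4E, the scaffold eIF4G and the helicase eIF4A, recruits the mRNA, and the subunit scans for a start codon. In elongation, eEF1A delivers aminoacyl-tRNAs and eEF2 moves the ribosome by one codon. Both steps are known control points: stress kinases phosphorylate eIF2 and block its exchange factor eIF2B, mTORC1 signalling frees eIF4E from its binding proteins, and eEF2 kinase inactivates eEF2.

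The upstream sequences of 7 genes are shown because each was among the 3 highest or the 3 lowest called genes in at least 2 of the 4 comparisons of YC-1 with DMSO. EIF1, EIF5 and EIF4A2 rose, and EIF4E, EIF4G3, EEF2K and EEFSEC fell, in all 4. Each run holds the 250 bases before the RefSeq start of transcription on GRCh38.p14, written 5′ to 3′ on the strand of the gene, and credited to RefSeq. Capitals mark the letters of an E-box (CACGTG) or an ETS element (CCGGAAG, on either strand). The positions are chr17:41688635-41688884 for EIF1, chr14:103333987-103334236 for EIF5, chr3:186783327-186783576 for EIF4A2, chr16:22206028-22206277 for EEF2K and chr3:128153231-128153480 for EEFSEC, all on the plus strand, and chr4:98929134-98929383 for EIF4E and chr1:21111384-21111633 for EIF4G3, both on the minus strand.
EIF1: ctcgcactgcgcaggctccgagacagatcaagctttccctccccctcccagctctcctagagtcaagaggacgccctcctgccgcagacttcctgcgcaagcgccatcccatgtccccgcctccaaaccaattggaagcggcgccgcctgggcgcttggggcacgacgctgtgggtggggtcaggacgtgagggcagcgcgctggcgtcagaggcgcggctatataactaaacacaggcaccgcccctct
EIF5: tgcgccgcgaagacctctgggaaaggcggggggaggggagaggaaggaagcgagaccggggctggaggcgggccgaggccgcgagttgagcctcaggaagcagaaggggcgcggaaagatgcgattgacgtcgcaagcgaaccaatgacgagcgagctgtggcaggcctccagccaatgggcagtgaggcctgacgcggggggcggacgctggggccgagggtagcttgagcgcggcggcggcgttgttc
EIF4A2: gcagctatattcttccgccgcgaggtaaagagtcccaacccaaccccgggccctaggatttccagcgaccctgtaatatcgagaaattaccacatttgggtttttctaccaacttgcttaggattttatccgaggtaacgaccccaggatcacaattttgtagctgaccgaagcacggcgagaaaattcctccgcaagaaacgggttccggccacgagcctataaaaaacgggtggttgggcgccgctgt
EIF4E: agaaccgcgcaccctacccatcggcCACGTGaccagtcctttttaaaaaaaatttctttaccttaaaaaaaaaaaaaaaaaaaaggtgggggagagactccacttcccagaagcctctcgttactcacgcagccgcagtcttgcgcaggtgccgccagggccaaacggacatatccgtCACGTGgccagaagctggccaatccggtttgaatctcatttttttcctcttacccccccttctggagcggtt
EIF4G3: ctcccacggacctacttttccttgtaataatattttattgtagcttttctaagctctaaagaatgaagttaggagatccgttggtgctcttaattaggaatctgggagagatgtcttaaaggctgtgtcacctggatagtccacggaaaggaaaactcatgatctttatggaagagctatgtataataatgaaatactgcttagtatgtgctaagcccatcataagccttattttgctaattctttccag
EEF2K: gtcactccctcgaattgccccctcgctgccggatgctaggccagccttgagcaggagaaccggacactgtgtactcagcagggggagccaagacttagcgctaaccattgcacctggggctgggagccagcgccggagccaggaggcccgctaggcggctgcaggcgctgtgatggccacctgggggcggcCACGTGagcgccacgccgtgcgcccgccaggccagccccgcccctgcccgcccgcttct
EEFSEC: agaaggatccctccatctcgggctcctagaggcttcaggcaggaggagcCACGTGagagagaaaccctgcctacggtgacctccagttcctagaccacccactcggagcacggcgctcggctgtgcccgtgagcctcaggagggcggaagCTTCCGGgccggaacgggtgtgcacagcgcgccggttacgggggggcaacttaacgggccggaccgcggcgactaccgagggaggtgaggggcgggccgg

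RefSeq gave a promoter window, from 250 bases before to 50 bases after the start, for 48 of the 60 genes. For 10 genes with more than 1 window the first was used. The palindrome CACGTG occurred in 12 of these 48 windows (25%) and in 7.43% of all 27305 windows. Among the genes that fell in all 4 comparisons it was present for EIF4E, at positions -225 and -72 from the start, for EEF2K at -59 and for EEFSEC at -201, it was absent for EIF4E2 and EIF4G3, and it was found in 0 of the 6 genes that rose in all 4. CCGGAAG, counted on both strands, was present in 12 windows (25%), against 10.7% of all windows. It occurred in EIF2B1 and EIF2B2, which rose in all 4 comparisons, and in EEFSEC and EIF4E2, which fell in all 4. The element TGATGNAA, known for binding of C/EBP and ATF factors, occurred in 0 of the 48 windows and in 3.67% of all windows. TGACGTCA, the cAMP response element, was found in EEF2 alone, and TGANTCA, the AP-1 element, in EIF3J and EIF5AL1 (1.98% and 7.76% of all windows). The palindromic element of the factor NRF1 was in 0 of the 48 and in 1.36% of all. A pyrimidine run, counted as a C followed by at least 5 pyrimidines and beginning within 10 bases of the start, was present in 19 windows (39.6%), against 20.5% of all. Such runs occur in mRNAs with a terminal oligopyrimidine tract. The RefSeq starts used for EEFSEC, EIF4A2, EIF5, EIF4E and EIF4G3 lie inside the genes as GENCODE 29 draws them, by 27, 372, 693, 1504 and 65505 bases, so their windows lie within the gene in part or whole. The motifs were searched on both strands except for the pyrimidine run, and none of them overlaps another in the sequences shown. These matches are descriptions of letters and were not tested.

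Sums of normalised counts were 20426000 to 27009000 in the YC-1 libraries and 19006000 to 21580000 in the DMSO libraries. Read depth cannot be recovered from these values, so no counting interval is given. Of 6 bile duct epithelial markers, 6 were detected in both lines, and summed levels of leukocyte, hepatocyte and stromal lists stayed at least 10-fold lower. A set of 3 SNU1079 libraries stood apart from their groups. The standard deviation of log2 differences from the other 2 libraries was 0.883 to 0.896 for YC-1 at 6 h replicate 1 and 0.906 to 0.955 for DMSO at 16 h replicate 1, against 0.565 and 0.607 between the remaining pairs. In YC-1 at 16 h replicate 2, mitochondrially encoded transcripts held 3.38% of the signal, against 18.1% and 22.1% in the other 2 libraries of the group. This library was set apart by that share and not clearly by the standard deviation of log2 differences. The latter was 0.875 and 1.03 from the other 2 libraries, against 0.876 between them. Results are therefore also given without these 3 libraries where that changes them.

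The 60 genes held a larger share of the nuclear-encoded signal with YC-1. Outside mitochondrially encoded transcripts, the share in RBE was 3.92% to 4.06% with YC-1 and 3.54% to 3.61% with DMSO at 6 h, and 3.97% to 4.11% with YC-1 and 3.46% to 3.71% with DMSO at 16 h. In SNU1079 it was 3.26% to 3.47% with YC-1 and 2.80% to 2.83% with DMSO at 6 h, and 3.15% to 3.40% with YC-1 and 2.69% to 2.80% with DMSO at 16 h. The YC-1 and DMSO libraries did not overlap in any of the 4 comparisons. As a share of all signal, mitochondrial transcripts included, the groups overlapped in RBE at 16 h, at 3.36% to 3.45% with YC-1 and 3.19% to 3.43% with DMSO, and were separate in the other 3 comparisons. No test is given for this sum, since the genes were chosen with results known. Neither share depends on how libraries were scaled to each other. The distribution within the group changed as well, because EEF1A1 took 36.9% to 38.9% of the group's signal in RBE with YC-1 at 16 h, against 44.7% to 47.4% with DMSO. In SNU1079 at 16 h its part was 24.9% to 29.2% with YC-1, against 31.2% to 35.0% with DMSO. Mitochondrially encoded transcripts moved in the same libraries and made up 15.4% to 17.0% of all signal in RBE with YC-1 at 16 h, against 7.67% to 8.18% with DMSO. Their part in the results below was not tested beyond the scaling that leaves them out.

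With YC-1 at 6 h in RBE, 8 of the 60 genes rose and 6 fell in limma's moderated test (adjusted p under 0.05, Benjamini-Hochberg over 17860 genes), where 11.6% of all tested genes rose and 12.4% fell. At 16 h in RBE, 32 rose and 11 fell, against 27.3% and 26.6% of all tested genes. In SNU1079, 16 rose and 8 fell at 6 h (14% and 14.2% of all tested genes), and 29 rose and 13 fell at 16 h (28.7% and 25.8%). As percentages, 53.3% of the 60 rose in RBE and 48.3% in SNU1079 at 16 h. The median log2 fold change of the 60 in RBE was 0.111 at 6 h and 0.461 at 16 h, beside 0 and 0.023 for all tested genes. In SNU1079 it was 0.130 at 6 h and 0.364 at 16 h, beside 0.006 and 0.062. In bulk RNA, fewer cells with a transcript and less of it per cell cannot be told apart.

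EIF1, EIF2B1, EIF2B2, EIF3D, EIF4A2 and EIF5 rose in all 4 comparisons, 6 of 60 (10%) beside 6.18% of all tested genes. EEF2K, EEFSEC, EIF4E, EIF4E2 and EIF4G3 fell in all 4, 5 of 60 (8.33%) beside 7.5%. At 16 h, 26 genes rose in both lines (43.3% beside 19.3%) and 10 fell in both (16.7% beside 18.4%). With all libraries, 0 of the 60 were called in opposite directions in different comparisons, where 2.53% of all tested genes were. Calls were absent in all 4 comparisons for 10 genes with all libraries, EEF1A1, EEF1E1, EIF1AY, EIF2B5, EIF3CL, EIF3E, EIF3H, EIF3M, EIF4E3 and EIF4G1.

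The number of rising genes at 16 h depended on how the libraries were scaled, whereas all but 1 of the falling calls were kept. With libraries scaled to equal sums, 17 rose and 17 fell in RBE at 16 h, and 15 rose and 23 fell in SNU1079. Equal sums without mitochondrially encoded genes gave 25 rising and 15 falling in RBE and 21 and 18 in SNU1079. Scaled to 77 ribosomal protein genes, 2 rose and 36 fell in RBE at 16 h, with 9 and 23 in SNU1079 at 16 h, and at 6 h 4 and 5 in RBE and 6 and 8 in SNU1079. Of these 77 genes, 76 were themselves called higher in RBE at 16 h in the deposited values, at a median of 0.95, and this scaling moved the median of all genes by -0.93 there and by -0.51 in SNU1079 at 16 h. Equal sums moved that median by -0.33 in RBE and -0.36 in SNU1079, and equal sums without mitochondrial genes by -0.19 and -0.24. Of the 32 genes that rose in RBE at 16 h, EIF1 and EIF5 kept the call under each scaling tried. With the ribosomal protein scaling EIF3D, EEF1B2, EIF2B2 and EIF4A2 stayed above 0 without a call, 16 were below 0 without a call and 10 were called lower. Equal sums kept 17 of the 32 calls and put EIF2D and EIF4A1 just below 0. Of the 29 genes that rose in SNU1079 at 16 h, 9 kept the call with the ribosomal protein scaling, 13 stayed above 0 and 7 were below 0, EIF2S1, EIF2D, EIF3A, EIF3B, EIF3I, EIF3K and EIF5A. All 11 falling genes in RBE and all 13 in SNU1079 at 16 h kept their calls under each of the 4 scalings, apart from EIF2A in RBE with an equal upper quartile. Without the 3 SNU1079 libraries that stood apart, more genes were called in RBE at 6 h, 16 higher and 9 lower.

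**Figure D1:**
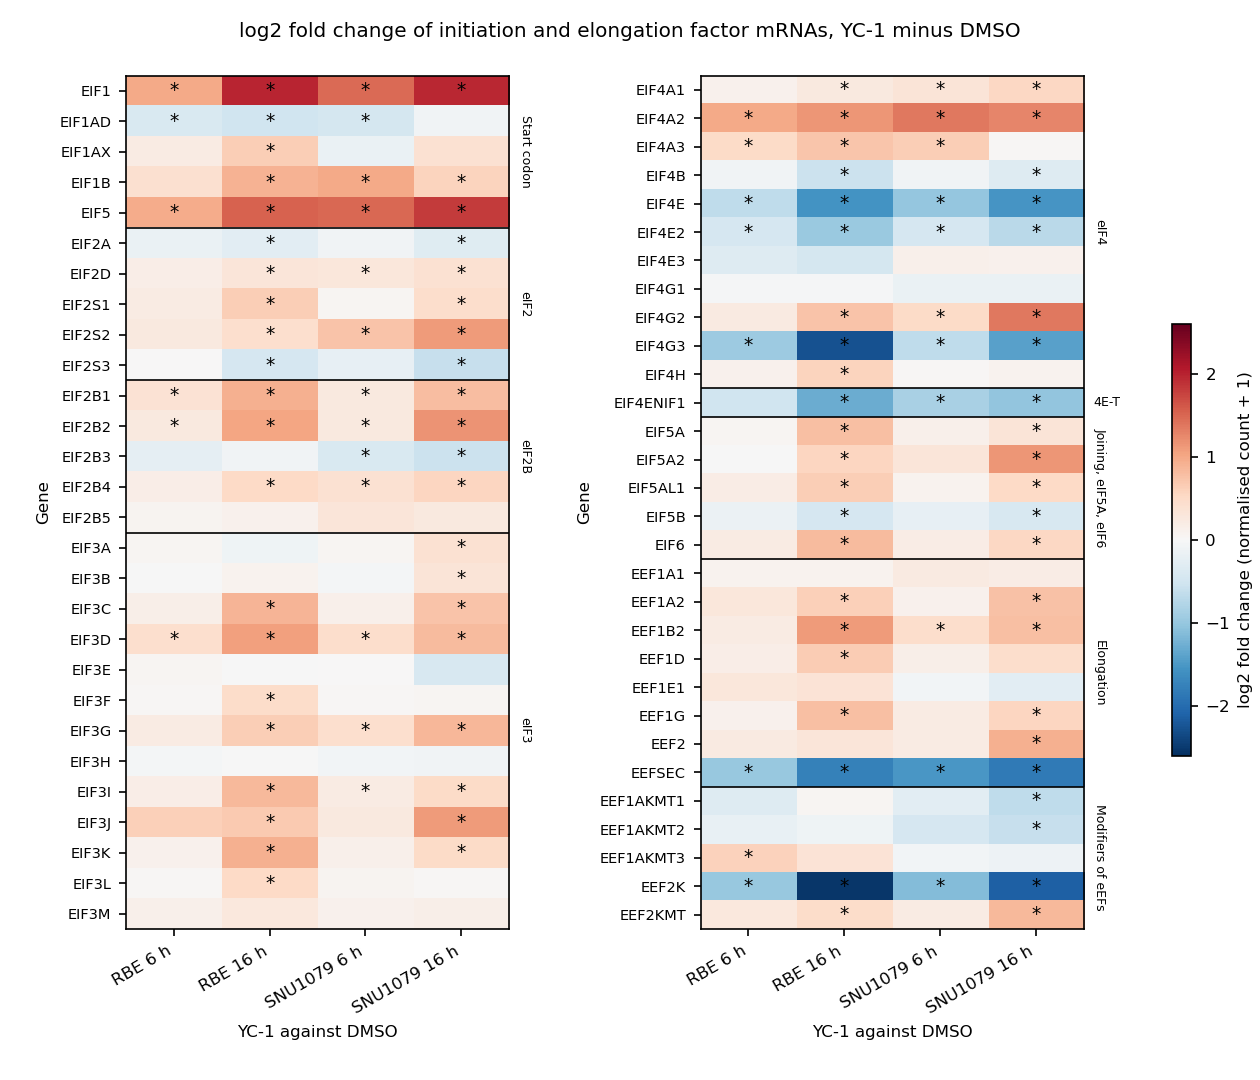
Log2 fold changes, YC-1 minus DMSO, of 58 of the 60 genes (EIF1AY and the uncertain EIF3CL are left out), by role from top to bottom and by line and time from left to right. Red is higher with YC-1, blue is lower, and a star marks an adjusted p under 0.05 in limma's test. EIF1, EIF5 and EIF4A2 stand out as red and EEF2K, EEFSEC, EIF4E and EIF4G3 as blue in each column.

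Of the factors that choose the start codon, EIF1 and EIF5 were among the 3 highest called genes in each comparison of YC-1 with DMSO. Of 6 genes, 2 rose and 1 fell in RBE at 6 h, 4 rose and 1 fell in RBE at 16 h, 3 rose and 1 fell in SNU1079 at 6 h, and 3 rose in SNU1079 at 16 h. Counts by role, here and below, stand beside the shares of all tested genes. In RBE, 11.6% of these rose and 12.4% fell at 6 h, with 27.3% and 26.6% at 16 h. In SNU1079 the shares were 14% and 14.2% at 6 h, with 28.7% and 25.8% at 16 h. EIF1 (chromosome 17, 41688885 to 41692668, GENCODE 29 on GRCh38) encodes eIF1, which holds the scanning ribosome open and guards the choice of start codon. EIF1 stood at 17298, 16476 and 17928 in the RBE libraries given YC-1 for 6 h, against 9347, 8556 and 8267 in those given DMSO. EIF1 read 28745, 28523 and 28250 with YC-1 in RBE cells after 16 h, against 7506, 7345 and 6803 with DMSO. No YC-1 library overlapped a DMSO library, and the levels at 16 h were the higher ones. For EIF1, SNU1079 levels at 6 h were 24284, 26048 and 29418 with YC-1, against 9080, 10044 and 9742 with DMSO. EIF1 values in SNU1079 at 16 h were 40076, 27105 and 34179 with YC-1, against 7646, 9401 and 8723 with DMSO. Here too each YC-1 library lay above each DMSO library, by a wide margin. The log2 fold changes of EIF1 were 0.98 ± 0.11 (6 h) and 1.98 ± 0.11 (16 h) in RBE and 1.46 ± 0.11 (6 h) and 1.96 ± 0.11 (16 h) in SNU1079 (adjusted p = 1.14e-06, 8.99e-12, 3.88e-09 and 1.27e-11).

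EIF5 (chromosome 14, 103333544 to 103345025) encodes the protein that makes eIF2 hydrolyse its GTP at the start codon. EIF5 stood at 23451, 21750 and 24005 in the RBE libraries given YC-1 for 6 h, against 11199, 12386 and 11986 in those given DMSO. EIF5 read 35346, 34543 and 33394 with YC-1 in RBE cells after 16 h, against 12271, 12288 and 11197 with DMSO. The RBE libraries with YC-1 stood well above those with DMSO at both times. For EIF5, SNU1079 levels at 6 h were 22632, 27719 and 31979 with YC-1, against 9270, 10362 and 9225 with DMSO. EIF5 values in SNU1079 at 16 h were 32763, 27669 and 30611 with YC-1, against 7577, 8594 and 9923 with DMSO. The SNU1079 groups were equally separate, although the YC-1 libraries at 6 h were spread more widely. Log2 fold changes of EIF5 were 0.96 ± 0.11 (6 h) and 1.53 ± 0.11 (16 h) in RBE and 1.5 ± 0.11 (6 h) and 1.81 ± 0.11 (16 h) in SNU1079 (adjusted p = 1.44e-06, 3.32e-10, 2.4e-09 and 3.59e-11). Under the ribosomal protein scaling, the smallest of these values was 0.59 in RBE at 16 h, and EIF1 stood there at 1.04, both still called higher.

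The other genes of this role changed less. EIF1B, a close relative of EIF1, rose in RBE at 16 h (0.89 ± 0.19) and in SNU1079 at 6 h (0.98 ± 0.19) and 16 h (0.57 ± 0.19). The last of these calls was lost when SNU1079 DMSO 16 h replicate 1, YC-1 16 h replicate 1 or YC-1 16 h replicate 3 was left out (0.43, 0.48 and 0.45, adjusted p = 0.0735, 0.0599 and 0.0673). Of the 4 other scalings, 3 kept the EIF1B call in RBE at 16 h (lowest value -0.04). In SNU1079, 4 kept it at 6 h and 1 at 16 h (lowest value 0.07). EIF1AX, which encodes eIF1A, rose in RBE at 16 h (0.64 ± 0.21, adjusted p = 0.0159) and stood at 0.40 ± 0.21 in SNU1079 at 16 h, where it was called without YC-1 6 h replicate 1 (adjusted p = 0.0133) but not with all libraries. Its RBE call was kept by 1 of the 4 other scalings, with a lowest value of -0.3. EIF1AD, named for its eIF1A-like domain, fell in RBE at 6 h (-0.40 ± 0.11) and 16 h (-0.52 ± 0.11) and in SNU1079 at 6 h (-0.45 ± 0.11). Without RBE YC-1 6 h replicate 1 the first of these was -0.35 with adjusted p = 0.0563 and no longer called.

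**Figure D2:**
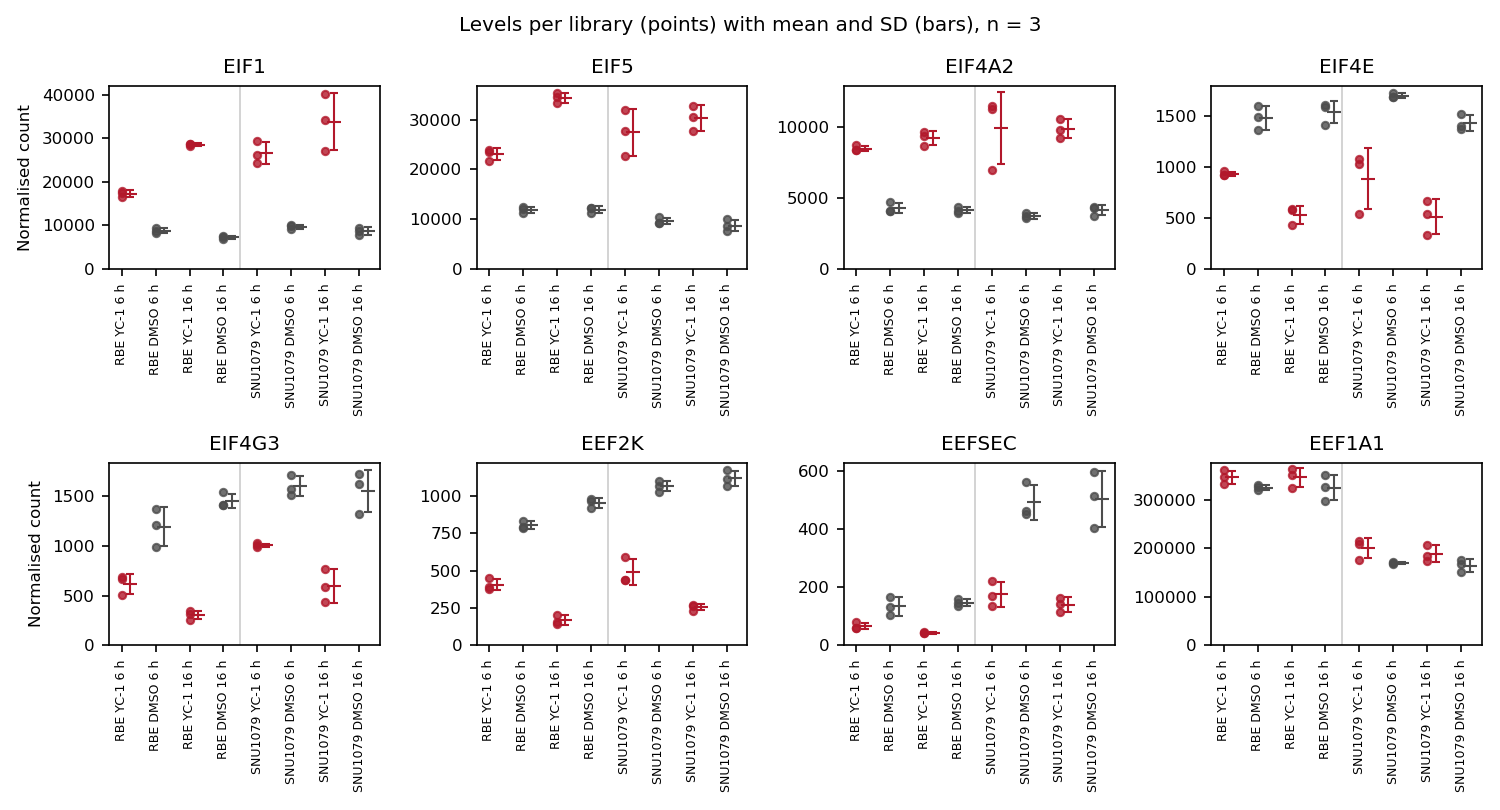
Normalised counts per library (points) with the mean and SD of 3 libraries (bars to the right) for 8 genes, each axis starting at 0. YC-1 groups are red and DMSO groups grey. YC-1 libraries lie above DMSO libraries for EIF1, EIF5 and EIF4A2 and below them for EIF4E, EIF4G3, EEF2K and EEFSEC in both lines at both times, whereas EEF1A1 differs between the lines far more than between treatments.

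Genes of eIF2 and of the proteins that can deliver a tRNA in its place moved in both directions. Of 5 genes, 0 were called in RBE at 6 h, 2 rose in SNU1079 at 6 h, and 3 rose and 2 fell in each line at 16 h. EIF2S1 encodes the alpha subunit, the target of the stress kinases. EIF2S1 stood at 4316, 4643 and 4234 in the RBE libraries given YC-1 for 16 h, against 2949, 2633 and 2940 in those given DMSO. EIF2S1 read 5733, 6265 and 4704 with YC-1 in SNU1079 cells after 16 h, against 3581, 4169 and 4398 with DMSO. All YC-1 libraries lay above all DMSO libraries at this time, at 0.63 ± 0.13, adjusted p = 0.000438 in RBE and 0.45 ± 0.13, adjusted p = 0.00672 in SNU1079. Both values of EIF2S1 turned negative with the ribosomal protein scaling, -0.31 in RBE and -0.05 in SNU1079, and neither was called. Without the 3 libraries that stood apart, the SNU1079 value was 0.28 (adjusted p = 0.0174).

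EIF2S2, the beta subunit, had the largest increase of this role in SNU1079. For EIF2S2, RBE levels at 16 h were 11173, 11184 and 10516 with YC-1, against 8125, 7943 and 8038 with DMSO. EIF2S2 values in SNU1079 at 16 h were 8388, 8861 and 9777 with YC-1, against 3562, 4630 and 4330 with DMSO. The groups did not overlap, and the separation was wider in SNU1079 (1.12 ± 0.12, adjusted p = 1.29e-07) than in RBE (0.45 ± 0.12, adjusted p = 0.00365). In SNU1079 at 6 h EIF2S2 rose by 0.74 ± 0.12. The RBE value turned to -0.49 and was called lower with the ribosomal protein scaling (adjusted p = 0.022). EIF2S3, the gamma subunit that binds GTP and the tRNA, fell at 16 h in RBE (-0.44 ± 0.16, adjusted p = 0.0258) and in SNU1079 (-0.60 ± 0.16, adjusted p = 0.00347). Its RBE call was lost without RBE DMSO 16 h replicate 2 or 3 or RBE YC-1 16 h replicate 3 (-0.45, -0.42 and -0.38, adjusted p = 0.053, 0.0699 and 0.0924), and its SNU1079 value was -0.38 without YC-1 16 h replicate 2, still called. EIF2D rose in RBE at 16 h (0.31 ± 0.09) and in SNU1079 at both times (0.30 ± 0.09 at 6 h and 0.40 ± 0.09 at 16 h). At 6 h the EIF2D call was lost without SNU1079 DMSO 6 h replicate 2 (0.28, adjusted p = 0.0549) or YC-1 6 h replicate 1 (0.22, adjusted p = 0.0678). EIF2A fell slightly at 16 h in both lines (-0.28 ± 0.11 in RBE and -0.32 ± 0.11 in SNU1079). The RBE call of EIF2A was lost when any one of 13 libraries was left out, among them all 12 of RBE (adjusted p up to 0.125), and the SNU1079 call when DMSO 16 h replicate 2 or 3 or YC-1 16 h replicate 2 was left out (adjusted p up to 0.149).

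The exchange factor eIF2B, which reloads eIF2 with GTP, split by subunit. Of 5 genes, 2 rose in RBE at 6 h, 3 rose in RBE at 16 h, and 3 rose and 1 fell in SNU1079 at each time. EIF2B1, EIF2B2 and EIF2B4 encode the regulatory subunits that sense phosphorylated eIF2, and EIF2B3 and EIF2B5 the catalytic ones. EIF2B2 stood at 2572, 2612 and 2663 in the RBE libraries given YC-1 for 16 h, against 1234, 1324 and 1274 in those given DMSO. EIF2B2 read 3954, 3853 and 4404 with YC-1 in SNU1079 cells after 16 h, against 1788, 1859 and 1794 with DMSO. The YC-1 libraries of EIF2B2 were well above the DMSO libraries without overlap, at 1.03 ± 0.08, adjusted p = 1.32e-09 in RBE and 1.16 ± 0.08, adjusted p = 2.71e-10 in SNU1079. EIF2B1 rose by 0.92 ± 0.09 in RBE and 0.80 ± 0.09 in SNU1079 at 16 h, and EIF2B4 by 0.52 ± 0.13 and 0.57 ± 0.13. EIF2B3 fell in SNU1079 at 6 h (-0.40 ± 0.10) and 16 h (-0.55 ± 0.10) and was not called in RBE (-0.23 ± 0.10 at 6 h and -0.08 ± 0.10 at 16 h). EIF2B5 passed in none of the 4 comparisons with all libraries. It was called higher in SNU1079 at 6 h without any one of 6 libraries (0.31 to 0.37, against 0.31 with all) and at 16 h without YC-1 16 h replicate 1 (0.36, adjusted p = 0.0201).

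Within a library, the ratio of EIF2B2 to EIF2B3 per kb of transcript does not depend on scaling between libraries. In RBE at 16 h it was 1.34, 1.32 and 1.51 with YC-1, against 0.618, 0.651 and 0.653 with DMSO, and in SNU1079 it was 5.01, 4.42 and 6.14 with YC-1, against 1.64, 1.61 and 1.45 with DMSO. The ratio was higher with YC-1 in each library of both lines (exact permutation test, p = 0.1 in each comparison, the smallest that 3 against 3 can give). This ratio and those below were chosen after the values were seen. Several of the eIF2B calls at 6 h depended on single libraries, while those of EIF2B1 in RBE and EIF2B3 in SNU1079 were kept in each leave-one-out fit. EIF2B2 at 6 h (0.26 ± 0.08 in RBE and 0.26 ± 0.08 in SNU1079) lost its RBE call without DMSO 6 h replicate 2 or 3 or any of the 3 YC-1 6 h libraries (adjusted p up to 0.129), and its SNU1079 call without DMSO 6 h replicate 1 or 2 or YC-1 6 h replicate 1 or 3 (adjusted p up to 0.102). EIF2B1 rose by 0.38 ± 0.09 in RBE at 6 h, and its value of 0.26 ± 0.09 in SNU1079 at 6 h lost the call without DMSO 6 h replicate 1 or 3 or YC-1 6 h replicate 3 (adjusted p up to 0.0874). EIF2B4 at 0.40 ± 0.13 in SNU1079 at 6 h lost it without DMSO 6 h replicate 1 or 2 or YC-1 6 h replicate 1 (adjusted p up to 0.0910). With the ribosomal protein scaling the RBE values at 16 h were 0.10 for EIF2B2, -0.02 for EIF2B1 and -0.42 for EIF2B4, the last 2 below 0. The EIF2B4 calls at 16 h were kept by 2 of the 4 other scalings in each line.

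The eIF3 complex organises the small subunit and contacts eIF4G, and most of its genes were called at 16 h and few at 6 h. Of 14 genes, 1 rose in RBE and 3 in SNU1079 at 6 h, 8 rose in each line at 16 h, and 0 fell in any of the 4 comparisons in the deposited scaling with all libraries. EIF3D, the subunit that can itself contact the cap of some mRNAs, was the one called in all 4. For EIF3D, RBE levels at 16 h were 9579, 9911 and 9485 with YC-1, against 4564, 4501 and 4707 with DMSO. EIF3D values in SNU1079 at 16 h were 7811, 8392 and 8870 with YC-1, against 4746, 4605 and 4882 with DMSO. The groups were far apart in both lines, with log2 fold changes of EIF3D of 0.43 ± 0.07 (6 h) and 1.07 ± 0.07 (16 h) in RBE and 0.45 ± 0.07 (6 h) and 0.82 ± 0.07 (16 h) in SNU1079 (adjusted p = 0.000132, 1.21e-10, 6.95e-05 and 8.09e-09). EIF3C, EIF3G, EIF3I, EIF3J and EIF3K also rose at 16 h in both lines. Their values in RBE were 0.88 ± 0.11 for EIF3C, 0.64 ± 0.13 for EIF3G, 0.84 ± 0.08 for EIF3I, 0.67 ± 0.22 for EIF3J and 0.92 ± 0.11 for EIF3K. In SNU1079 the same genes stood at 0.74, 0.85, 0.49, 1.11 and 0.49. EIF3F and EIF3L were called in RBE (0.48 ± 0.09 and 0.51 ± 0.10) and stood at 0.05 ± 0.09 and 0.02 ± 0.10 in SNU1079. EIF3A and EIF3B were called in SNU1079 (0.39 ± 0.09 and 0.34 ± 0.08) and stood at -0.11 ± 0.09 and 0.10 ± 0.08 in RBE. The SNU1079 DMSO level of EIF3A was 9649, 9408 and 10928 at 16 h, against 13066, 12786 and 12854 at 6 h. With YC-1 it was 11389, 14280 and 13729 at 16 h, against 11959, 14012 and 14071 at 6 h.

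At 6 h in SNU1079, EIF3G (0.44 ± 0.13) and EIF3I (0.21 ± 0.08) were called beside EIF3D. The EIF3G call was lost without SNU1079 DMSO 6 h replicate 1 (0.41, adjusted p = 0.0592) or YC-1 6 h replicate 1 (0.29, adjusted p = 0.103). The EIF3I call at 6 h was lost without any one of 20 of the 24 libraries (adjusted p up to 0.226) and without the 3 that stood apart (0.12, adjusted p = 0.14). EIF3J at 6 h was not called with all libraries. It stood at 0.61 ± 0.22 in RBE, where it was called higher without any one of 5 SNU1079 libraries (adjusted p = 0.00167 to 0.0468), and at 0.25 ± 0.22 in SNU1079, where it was called higher without YC-1 6 h replicate 1, one of those that stood apart (0.66, adjusted p = 0.00226). EIF3I in RBE at 6 h (0.18 ± 0.08) was called higher without the same library (adjusted p = 0.0445). EIF3E, EIF3H and EIF3M passed in none of the 4 comparisons with all libraries. EIF3E in SNU1079 at 16 h (-0.42 ± 0.21) was called lower without DMSO 16 h replicate 1, YC-1 16 h replicate 3 or YC-1 6 h replicate 1 (-0.59 to -0.42, adjusted p = 0.0165 to 0.0381). EIF3M in RBE at 16 h (0.28 ± 0.12) was called higher without any one of 6 SNU1079 libraries (adjusted p = 0.0146 to 0.0494). EIF3CL, a near copy of EIF3C, ranged from 0 to 2354 over the 24 libraries (SE 1.59). Reads shared by EIF3C and EIF3CL cannot be assigned from these values, and both genes are uncertain. With the ribosomal protein scaling the RBE value at 16 h was 0.13 for EIF3D, below 0 without a call for EIF3C, EIF3I, EIF3J and EIF3K, and called lower for EIF3F (-0.46), EIF3G (-0.30) and EIF3L (-0.43). Of the 4 other scalings, 3 kept the RBE calls of EIF3C, EIF3D, EIF3I and EIF3K at 16 h. Only 2 kept those of EIF3F, EIF3G and EIF3L, and 1 that of EIF3J. In SNU1079 at 16 h, 4 kept EIF3G, 3 kept EIF3C, EIF3D and EIF3J, 2 kept EIF3I and EIF3K, and 1 kept EIF3A and EIF3B.

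Among the eIF4 genes, the helicase gene EIF4A2 rose and the main cap-binding gene EIF4E fell in all 4 comparisons. Rises and falls side by side were also seen over all tested genes, at 28.7% and 25.8% in SNU1079 at 16 h. Of 11 genes, 2 rose and 3 fell in RBE at 6 h, 5 rose and 4 fell in RBE at 16 h, with 4 rising and 3 falling in SNU1079 at 6 h and 3 rising and 4 falling there at 16 h. EIF4A2 (chromosome 3, 186783205 to 186789900) encodes a paralogue of the helicase eIF4A. EIF4A2 stood at 8353, 8708 and 8372 in the RBE libraries given YC-1 for 6 h, against 4068, 4715 and 4096 in those given DMSO. EIF4A2 read 9623, 9358 and 8658 with YC-1 in RBE cells after 16 h, against 4391, 3932 and 4079 with DMSO. YC-1 libraries were about double the DMSO libraries at both times. For EIF4A2, SNU1079 levels at 6 h were 7000, 11297 and 11468 with YC-1, against 3963, 3718 and 3551 with DMSO. EIF4A2 values in SNU1079 at 16 h were 9821, 9255 and 10566 with YC-1, against 3727, 4280 and 4362 with DMSO. In SNU1079 at 6 h the lowest YC-1 value came from replicate 1, one of the libraries that stood apart, and it still lay above every DMSO value. Log2 fold changes of EIF4A2 were 0.98 ± 0.13 (6 h) and 1.16 ± 0.13 (16 h) in RBE and 1.37 ± 0.13 (6 h) and 1.26 ± 0.13 (16 h) in SNU1079 (adjusted p = 9.53e-06, 2.53e-07, 1.08e-07 and 8.11e-08). Its value in RBE at 16 h with the ribosomal protein scaling was 0.22 (adjusted p = 0.351), and the other 3 stayed called higher.

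EIF4A1, the main helicase of eIF4F, was the more abundant paralogue at 19078 normalised counts per kb over all libraries, against 3531 for EIF4A2. For EIF4A1, RBE levels at 16 h were 26627, 26933 and 26844 with YC-1, against 22795, 22309 and 21993 with DMSO. EIF4A1 values in SNU1079 at 16 h were 43957, 46660 and 43275 with YC-1, against 31773, 30929 and 29415 with DMSO. The YC-1 libraries were higher in both lines by a small step, 0.26 ± 0.07 in RBE and 0.54 ± 0.07 in SNU1079 (adjusted p = 0.00278 and 1.03e-06), and EIF4A1 also rose in SNU1079 at 6 h (0.34 ± 0.07). The RBE value turned to -0.07 with equal sums (adjusted p = 0.532) and to -0.68 with the ribosomal protein scaling, where it was called lower. Of the 4 other scalings, 1 kept the RBE call of EIF4A1 at 16 h and 2 kept its SNU1079 call at 16 h. Per kb of transcript, EIF4A2 amounted in RBE at 16 h to 0.312, 0.3 and 0.279 times EIF4A1 with YC-1, against 0.166, 0.152 and 0.16 with DMSO, and in SNU1079 to 0.193, 0.171 and 0.211 with YC-1, against 0.101, 0.12 and 0.128 with DMSO. The ratio was higher with YC-1 in each library (exact permutation test, p = 0.1, the smallest possible here). EIF4A3, the helicase of the exon junction complex and not part of eIF4F, rose in RBE at 6 h (0.51 ± 0.10) and 16 h (0.72 ± 0.10) and in SNU1079 at 6 h (0.64 ± 0.10), and stood at 0.03 ± 0.10 in SNU1079 at 16 h. Its RBE value at 16 h was -0.22, called lower, with the ribosomal protein scaling.

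EIF4E (chromosome 4, 98871684 to 98930637) encodes the protein that binds the mRNA cap. EIF4E stood at 921, 959 and 924 in the RBE libraries given YC-1 for 6 h, against 1498, 1599 and 1361 in those given DMSO. EIF4E read 584, 579.8 and 429 with YC-1 in RBE cells after 16 h, against 1594, 1414 and 1608 with DMSO. The RBE libraries with YC-1 lay below all those with DMSO at both times. For EIF4E, SNU1079 levels at 6 h were 542, 1034 and 1081 with YC-1, against 1688, 1729 and 1689 with DMSO. EIF4E values in SNU1079 at 16 h were 668, 334 and 539.6 with YC-1, against 1406, 1376 and 1520 with DMSO. All SNU1079 libraries with YC-1 were lower as well, and the lowest at 6 h and at 16 h were replicates that stood apart. Log2 fold changes of EIF4E were -0.67 ± 0.22 (6 h) and -1.55 ± 0.22 (16 h) in RBE and -1.01 ± 0.22 (6 h) and -1.53 ± 0.22 (16 h) in SNU1079 (adjusted p = 0.0297, 4.38e-06, 0.00136 and 4.84e-06). Without the 3 libraries that stood apart they were -0.69 in SNU1079 at 6 h and -1.27 at 16 h, both still called lower. The difference of the EIF4E effect between the times did not pass in either line (-0.88 ± 0.31, adjusted p = 0.0522 in RBE and -0.53 ± 0.31, adjusted p = 0.258 in SNU1079). It passed in SNU1079 without YC-1 6 h replicate 1, which stood apart (-0.85, adjusted p = 0.0171), and in RBE without any one of 5 SNU1079 libraries (-0.88, adjusted p = 0.0105 to 0.0484). The RBE call at 6 h was lost without DMSO 6 h replicate 1 or 2 or any of the 3 YC-1 6 h libraries of RBE, with values between -0.68 and -0.61 and adjusted p between 0.0629 and 0.0994. EIF4E2, a relative of eIF4E that does not bind eIF4G well and represses mRNAs, fell in all 4 comparisons with log2 fold changes of -0.43 ± 0.12 (6 h) and -0.97 ± 0.12 (16 h) in RBE and -0.43 ± 0.12 (6 h) and -0.70 ± 0.12 (16 h) in SNU1079. Its RBE call at 6 h was lost without DMSO 6 h replicate 2 (-0.40, adjusted p = 0.0504) or YC-1 6 h replicate 1 (-0.35, adjusted p = 0.0749), and its SNU1079 call at 6 h without DMSO 6 h replicate 1 (-0.34, adjusted p = 0.0759). EIF4E3 passed in none of the 4 and had the lowest level of the 60 genes, 24.5 normalised counts per kb.

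EIF4G3 (chromosome 1, 20806292 to 21176888) encodes a scaffold that joins eIF4E and eIF4A. EIF4G3 stood at 503, 672 and 685 in the RBE libraries given YC-1 for 6 h, against 991, 1379 and 1216 in those given DMSO. EIF4G3 read 344, 314 and 256 with YC-1 in RBE cells after 16 h, against 1416, 1415 and 1541 with DMSO. There was no overlap, and the distance was larger at 16 h. For EIF4G3, SNU1079 levels at 6 h were 1026, 989 and 1006 with YC-1, against 1577, 1518 and 1718 with DMSO. EIF4G3 values in SNU1079 at 16 h were 585, 432 and 772 with YC-1, against 1725, 1321 and 1624 with DMSO. SNU1079 showed the same order with less distance between the groups. Log2 fold changes of EIF4G3 were -0.95 ± 0.17 (6 h) and -2.26 ± 0.17 (16 h) in RBE and -0.67 ± 0.17 (6 h) and -1.41 ± 0.17 (16 h) in SNU1079 (adjusted p = 0.000334, 8.63e-10, 0.00589 and 7.46e-07). EIF4G1, the main scaffold, was called in none of the 4 comparisons (-0.03, -0.02, -0.18 and -0.17 in the same order). In SNU1079 it was called lower without YC-1 6 h replicate 1, at -0.31 at 6 h and -0.17 at 16 h (adjusted p = 0.00557 and 0.0443).

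EIF4G2 encodes DAP5, a relative of eIF4G that lacks the site for eIF4E and serves initiation without it. For EIF4G2, RBE levels at 16 h were 56524, 56765 and 52495 with YC-1, against 32885, 32808 and 33296 with DMSO. EIF4G2 values in SNU1079 at 16 h were 27710, 28524 and 36821 with YC-1, against 9813, 12468 and 13630 with DMSO. YC-1 libraries were higher without overlap, and by more in SNU1079 (1.38 ± 0.13, adjusted p = 1.24e-08) than in RBE (0.74 ± 0.13, adjusted p = 4.09e-05). At 6 h EIF4G2 rose in SNU1079 (0.50 ± 0.13) and stood at 0.24 ± 0.13 in RBE, not called. Its RBE value at 16 h with the ribosomal protein scaling was -0.20 and its SNU1079 value 0.87. Per kb, EIF4G2 amounted to 6.86, 6.74 and 6.15 times EIF4G1 in RBE with YC-1 at 16 h, against 3.98, 4.06 and 3.58 with DMSO, and in SNU1079 to 3.03, 2.76 and 3.7 with YC-1, against 0.85, 1.18 and 1.24 with DMSO. EIF4E per kb was 0.232, 0.226 and 0.165 times EIF4G1 in RBE with YC-1 at 16 h, against 0.633, 0.573 and 0.566 with DMSO. In SNU1079 at 16 h this ratio was 0.24, 0.106 and 0.178 with YC-1, against 0.399, 0.426 and 0.452 with DMSO. Neither ratio overlapped between treatments (exact permutation test, p = 0.1 in each case, the smallest possible), and neither depends on the scaling of libraries.

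**Figure D3:**
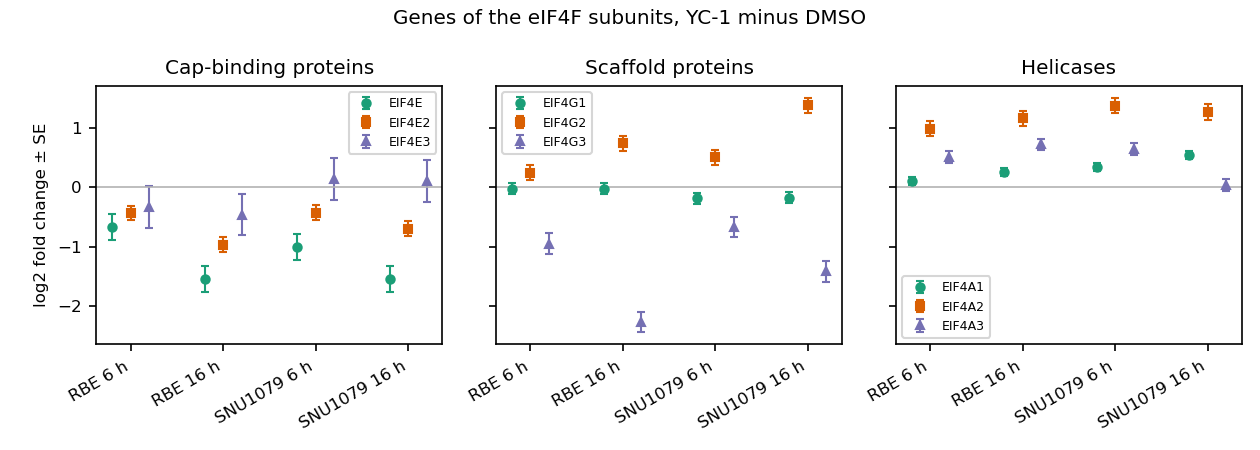
Log2 fold changes, YC-1 minus DMSO, with SE, of the genes for the cap-binding, scaffold and helicase proteins in each line at each time. EIF4E and EIF4G3 lie below 0, EIF4G1 between -0.18 and -0.02, and EIF4G2 and EIF4A2 above 0 in all 4 comparisons with the scaling as deposited; EIF4G2 in RBE at 16 h turns to -0.20 when scaled to ribosomal protein genes.

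Among the helpers of the helicase, EIF4B fell at 16 h in RBE (-0.56 ± 0.08, adjusted p = 5.28e-06) and in SNU1079 (-0.34 ± 0.08, adjusted p = 0.00104), and EIF4H rose in RBE at 16 h. For EIF4H, RBE levels at 16 h were 15742, 16784 and 16091 with YC-1, against 10505, 10767 and 11171 with DMSO. EIF4H values in SNU1079 at 16 h were 12323, 10535 and 10520 with YC-1, against 10481, 10798 and 10109 with DMSO. The RBE groups were separate (0.58 ± 0.07, adjusted p = 3.53e-07), whereas the SNU1079 groups overlapped (0.09 ± 0.07, adjusted p = 0.304). EIF4H was called lower in RBE with the ribosomal protein scaling, at -0.36. EIF4ENIF1, the transporter that carries eIF4E into the nucleus and to sites of mRNA storage, fell in RBE at 16 h (-1.29 ± 0.26) and in SNU1079 at 6 h (-0.85 ± 0.26) and 16 h (-1.02 ± 0.26). Its SNU1079 call at 6 h was lost without DMSO 6 h replicate 3 (-0.77, adjusted p = 0.07) or YC-1 6 h replicate 2 (-0.80, adjusted p = 0.0553), and its value at 16 h was -0.54 without YC-1 16 h replicate 2, still called. The binding proteins outside the rule differed from one another. EIF4EBP1 at 16 h, with libraries from low to high, was at 2028, 2087 and 2208 in RBE with YC-1, against 1150, 1249 and 1360 with DMSO, and 1465, 1896 and 1988 in SNU1079 with YC-1, against 972, 1207 and 1254 with DMSO. The groups did not overlap. EIF4EBP1 rose (0.75 ± 0.13 in RBE and 0.64 ± 0.13 in SNU1079), EIF4EBP3 rose at 16 h in both lines (1.94 ± 0.46 and 1.29 ± 0.46) and in SNU1079 at 6 h (1.66 ± 0.46), and EIF4EBP2 fell in SNU1079 at 16 h (-0.53 ± 0.18). These are values in the deposited scaling, and those under the other scalings are not given. The ribosomal protein scaling moved the median of all genes by -0.93 in RBE at 16 h.

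Genes of the late initiation factors and of eIF5A gave calls at 16 h and none at 6 h with all libraries, and the difference between the times passed for EIF5A in RBE and for EIF5A2 in SNU1079. Of 5 genes, 0 were called at 6 h in either line, and 4 rose and 1 fell in each line at 16 h. EIF5A, the hypusine-containing factor that helps ribosomes form difficult peptide bonds, rose by 0.79 ± 0.10 in RBE and 0.33 ± 0.10 in SNU1079. EIF5A2, its second gene, rose by 0.56 ± 0.14 in RBE and 1.14 ± 0.14 in SNU1079, where its DMSO level was lower at 16 h than at 6 h. At 6 h in SNU1079 EIF5A2 stood at 0.32 ± 0.14 and was called higher without YC-1 6 h replicate 1, which stood apart (0.44, adjusted p = 0.0306). Its difference between the times in RBE (0.58 ± 0.20) was called without any one of 8 libraries (0.58 to 0.67, adjusted p = 0.0306 to 0.0486). EIF5AL1 is a near copy of EIF5A, so reads can be shared, and its values (0.64 ± 0.17 and 0.52 ± 0.17) are uncertain. Its SNU1079 call was lost without YC-1 16 h replicate 1 (0.41, adjusted p = 0.079). EIF6, which keeps free large subunits from joining, rose by 0.82 ± 0.15 in RBE and 0.54 ± 0.15 in SNU1079. EIF5B, the GTPase that joins the subunits, fell at 16 h (-0.44 ± 0.11 in RBE, -0.42 ± 0.11 in SNU1079). With equal sums the SNU1079 value of EIF5A was -0.03, and with the ribosomal protein scaling -0.18, neither called. With the ribosomal protein scaling the RBE values of EIF5A (-0.15), EIF5A2 (-0.37) and EIF6 (-0.12) were negative, and EIF5B remained lower. Of the 4 other scalings, 3 kept the RBE calls of EIF5A and EIF6 and 2 that of EIF5A2. In SNU1079, 1 kept the calls of EIF5A and EIF6 and 4 that of EIF5A2.

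Of the elongation factor genes, the exchange subunit genes EEF1B2 and EEF1G rose at 16 h in both lines, EEFSEC fell in all 4 comparisons and EEF1A1 was not called. Of 8 genes, 1 fell in RBE at 6 h, 1 rose and 1 fell in SNU1079 at 6 h, and 4 rose and 1 fell in each line at 16 h. EEF1A1, which encodes the tRNA-delivering eEF1A, had the highest level of the 60 genes at 74786 normalised counts per kb. EEF1A1 stood at 349588, 362982 and 323466 in the RBE libraries given YC-1 for 16 h, against 325964, 297953 and 350290 in those given DMSO. EEF1A1 read 183692, 173484 and 207265 with YC-1 in SNU1079 cells after 16 h, against 149834, 167112 and 175297 with DMSO. The RBE groups overlapped, and in SNU1079 one YC-1 value lay within the DMSO range. Its log2 fold changes were 0.09 ± 0.10 (6 h) and 0.09 ± 0.10 (16 h) in RBE and 0.23 ± 0.10 (6 h) and 0.20 ± 0.10 (16 h) in SNU1079, none of them called (adjusted p = 0.571, 0.451, 0.0837 and 0.091). In SNU1079 EEF1A1 was called higher at 16 h without YC-1 16 h replicate 2 (0.25, adjusted p = 0.0336) and at 6 h without that library (0.23, adjusted p = 0.0484) or YC-1 6 h replicate 1 (0.32, adjusted p = 0.0189). Pseudogenes of EEF1A1 are numerous and can take some of its reads.

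EEF1B2 encodes the subunit that reloads eEF1A with GTP. For EEF1B2, RBE levels at 16 h were 29059, 29658 and 26932 with YC-1, against 13839, 12814 and 12887 with DMSO. EEF1B2 values in SNU1079 at 16 h were 20375, 16306 and 22534 with YC-1, against 10136, 12365 and 11731 with DMSO. YC-1 libraries were higher in both lines without overlap, at 1.11 ± 0.10, adjusted p = 8.86e-09 in RBE and 0.78 ± 0.10, adjusted p = 1.33e-06 in SNU1079, and EEF1B2 also rose in SNU1079 at 6 h (0.46 ± 0.10). EEF1G, the structural subunit of the same complex, had the second highest level per kb (29238). EEF1G stood at 71522, 73982 and 71859 in the RBE libraries given YC-1 for 16 h, against 41670, 41350 and 44024 in those given DMSO. EEF1G read 46071, 56077 and 44652 with YC-1 in SNU1079 cells after 16 h, against 34389, 33777 and 30720 with DMSO. Again the groups were separate, at 0.78 ± 0.09, adjusted p = 2.76e-07 in RBE and 0.56 ± 0.09, adjusted p = 1.77e-05 in SNU1079. EEF1D, another exchange subunit, rose in RBE at 16 h (0.65 ± 0.23), a call lost without DMSO 16 h replicate 1 (0.57, adjusted p = 0.0796) or YC-1 16 h replicate 3 (0.58, adjusted p = 0.0746). In SNU1079 at 16 h EEF1D stood at 0.46 ± 0.23, not called, and was called higher without YC-1 16 h replicate 3 (0.74, adjusted p = 0.00881). EEF1A2, the second eEF1A gene, rose at 16 h in RBE (0.63 ± 0.18) and in SNU1079 (0.76 ± 0.18). In RBE at 16 h the ribosomal protein scaling gave 0.18 for EEF1B2, -0.16 for EEF1G, -0.29 for EEF1D and -0.31 for EEF1A2.

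EEF2 encodes the translocase that moves the ribosome. For EEF2, RBE levels at 16 h were 41515, 42632 and 47445 with YC-1, against 31427, 33349 and 42137 with DMSO. EEF2 values in SNU1079 at 16 h were 55191, 75746 and 64693 with YC-1, against 39753, 32227 and 31198 with DMSO. In SNU1079 the groups were apart (0.92 ± 0.14, adjusted p = 1.36e-05), and in RBE one DMSO library, replicate 3, reached into the YC-1 range (0.31 ± 0.14, adjusted p = 0.0724). The RBE value was called higher without that library (0.44, adjusted p = 0.0213) or without SNU1079 YC-1 6 h replicate 1 (0.31, adjusted p = 0.031). EEF1E1, a component of the aminoacyl-tRNA synthetase complex, passed in none of the 4 comparisons with all libraries. At 16 h it was called higher in RBE without SNU1079 YC-1 16 h replicate 2 (0.35, adjusted p = 0.0175) and lower in SNU1079 without YC-1 16 h replicate 1 (-0.43, adjusted p = 0.0401). EEFSEC (chromosome 3, 128153454 to 128408646), the factor that delivers selenocysteine to the ribosome, moved the other way. EEFSEC stood at 60.4, 79.4 and 58.7 in the RBE libraries given YC-1 for 6 h, against 167, 103 and 131 in those given DMSO. EEFSEC read 40.8, 41.3 and 45.5 with YC-1 in RBE cells after 16 h, against 144, 136 and 159.8 with DMSO. RBE libraries with YC-1 were below all DMSO libraries at both times. For EEFSEC, SNU1079 levels at 6 h were 220.4, 136 and 171 with YC-1, against 454, 461 and 563 with DMSO. EEFSEC values in SNU1079 at 16 h were 144, 163 and 113 with YC-1, against 598, 513 and 405 with DMSO. The SNU1079 libraries showed the same order at higher levels. Log2 fold changes of EEFSEC were -0.99 ± 0.21 (6 h) and -1.76 ± 0.21 (16 h) in RBE and -1.5 ± 0.21 (6 h) and -1.84 ± 0.21 (16 h) in SNU1079 (adjusted p = 0.0013, 4.67e-07, 1.29e-05 and 2.69e-07).

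Among the enzymes that modify elongation factors, EEF2K had the largest called fall of the 60 genes at 16 h in both lines. Of 5 genes, 1 rose and 1 fell in RBE at each time, while SNU1079 had 1 fall at 6 h and 1 rise and 3 falls at 16 h. EEF2K (chromosome 16, 22206282 to 22288732) encodes the kinase that phosphorylates eEF2 and slows elongation. EEF2K stood at 389.5, 449 and 379.9 in the RBE libraries given YC-1 for 6 h, against 789, 786 and 834 in those given DMSO. EEF2K read 142, 153 and 206 with YC-1 in RBE cells after 16 h, against 918, 966 and 978 with DMSO. The levels with YC-1 were lower in each library, and lower again at 16 h. For EEF2K, SNU1079 levels at 6 h were 591, 436 and 441 with YC-1, against 1030, 1098 and 1068 with DMSO. EEF2K values in SNU1079 at 16 h were 264, 268 and 233 with YC-1, against 1067, 1114 and 1173 with DMSO. SNU1079 gave the same picture, with no overlap at either time. Log2 fold changes of EEF2K were -0.99 ± 0.13 (6 h) and -2.53 ± 0.13 (16 h) in RBE and -1.14 ± 0.13 (6 h) and -2.13 ± 0.13 (16 h) in SNU1079 (adjusted p = 1e-05, 3.78e-12, 1.42e-06 and 4.86e-11), called lower under each of the 4 other scalings and in each leave-one-out fit. Per kb, the ratio of EEF2K to EEF2 in RBE at 16 h was 0.00146, 0.00154 and 0.00186 with YC-1, against 0.0125, 0.0124 and 0.00994 with DMSO. In SNU1079 at 16 h it was 0.00205, 0.00152 and 0.00154 with YC-1, against 0.0115, 0.0148 and 0.0161 with DMSO, again without overlap (exact permutation test, p = 0.1, the smallest possible).

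The methyltransferase genes gave fewer calls. EEF2KMT, whose product methylates eEF2, rose at 16 h in RBE (0.48 ± 0.18) and in SNU1079 (0.85 ± 0.18), and the RBE call was lost without DMSO 16 h replicate 1 or YC-1 16 h replicate 2 or 3 (0.37, 0.46 and 0.43, adjusted p = 0.128, 0.0644 and 0.0857). Of the 4 other scalings, 1 kept the RBE call of EEF2KMT, with a lowest value of -0.46, and 4 kept its SNU1079 call. EEF1AKMT1 and EEF1AKMT2, which methylate lysines of eEF1A, fell in SNU1079 at 16 h (-0.65 ± 0.19 and -0.60 ± 0.21). The EEF1AKMT2 call was lost without SNU1079 DMSO 16 h replicate 2 or 3 or YC-1 16 h replicate 1 (-0.51, -0.44 and -0.51, adjusted p = 0.0745, 0.111 and 0.0758). EEF1AKMT3 rose in RBE at 6 h (0.59 ± 0.16, adjusted p = 0.00903). Among 10 of the 60 genes known from the literature to have mRNAs with a terminal oligopyrimidine tract, at 16 h 5 rose and 1 fell in RBE, with 4 rises and 1 fall in SNU1079, while 0 were called in RBE at 6 h and 1 rose in SNU1079 at 6 h.

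Direction went with the length of the gene, a property that the choice of genes did not use. The span on GRCh38 ran from 2.74 kb for EIF1B to 371 kb for EIF4G3, with a median of 20.9 kb, against 26.3 kb for all tested genes with an annotation. Of the 10 genes over 50 kb, 0 rose and 4 fell in RBE at 6 h, 0 and 6 in RBE at 16 h, 0 and 6 in SNU1079 at 6 h, and 0 and 7 in SNU1079 at 16 h. Of the 15 genes under 10 kb, 3 rose and 1 fell in RBE at 6 h, 12 and 1 in RBE at 16 h, 9 and 1 in SNU1079 at 6 h, and 13 and 0 in SNU1079 at 16 h. Among all tested genes, whatever their length, 11.6% rose and 12.4% fell in RBE at 6 h, with 27.3% and 26.6% at 16 h. In SNU1079, 14% of them rose and 14.2% fell at 6 h, with 28.7% and 25.8% at 16 h. EIF4G3 (371 kb), EEFSEC (255 kb), EEF2K (82.5 kb) and EIF4E (59.0 kb) all fell, and EIF1 (3.78 kb), EIF4A2 (6.70 kb) and EEF1B2 (3.34 kb) rose. EIF3E (234 kb) and EIF3H (125 kb) are long genes that passed in none of the 4 comparisons. Across the 60 genes Spearman's rho of log2 fold change with span was -0.63 in RBE at 6 h and at 16 h, -0.64 in SNU1079 at 6 h and -0.66 in SNU1079 at 16 h. Over 17258 tested genes the same coefficients were -0.32, -0.41, -0.27 and -0.31. Genes share libraries and scaling, so these coefficients are descriptions, and whether the 60 differ from other genes of like length was not tested.

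**Figure D4:**
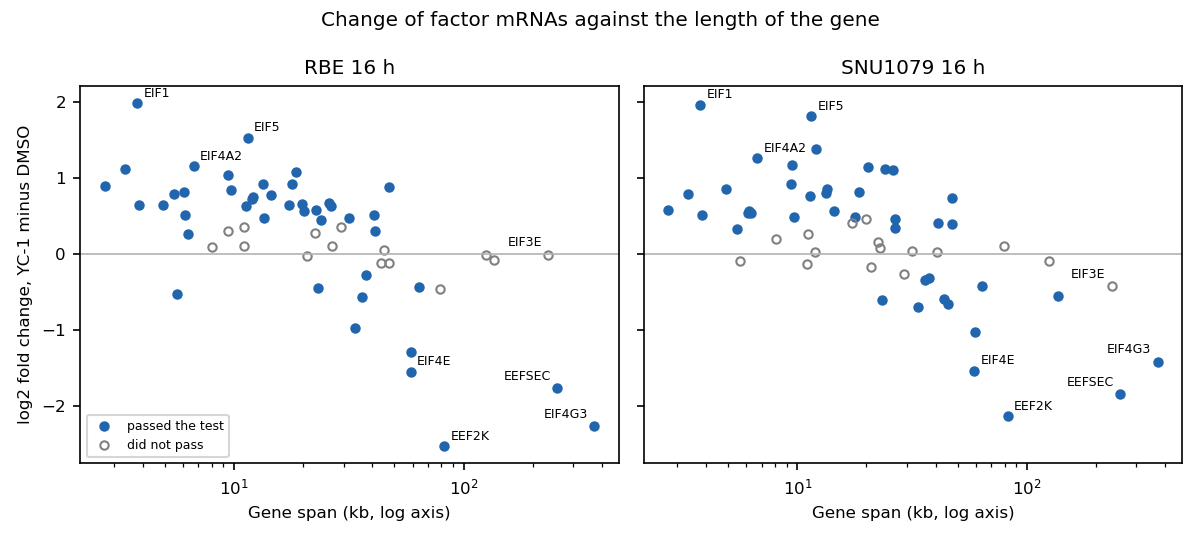
Log2 fold change, YC-1 minus DMSO, at 16 h against the span of the gene in kb (log axis) for 58 of the 60 genes in RBE (left) and SNU1079 (right). Filled points passed the test and open points did not. Genes over 50 kb lie below 0 apart from EIF4E3 in SNU1079, and genes under 10 kb lie above 0 apart from EIF1AD, with the scaling as deposited.

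Whether the effect of YC-1 changed between 6 h and 16 h was tested as a difference of the effects. In RBE, 14 of the 60 genes had a higher and 4 a lower effect at 16 h, beside 8.8% and 9.43% of all tested genes. EIF1 and EEF1B2 had the largest positive differences in RBE, 1.0 ± 0.16, adjusted p = 0.000215 and 0.90 ± 0.14, adjusted p = 0.000231, and EEF2K and EIF4G3 the largest negative ones, -1.54 ± 0.19, adjusted p = 1.75e-05 and -1.32 ± 0.25, adjusted p = 0.000906. EIF2B2 (0.78 ± 0.12), EIF3K (0.80 ± 0.15), EIF5A (0.74 ± 0.14), EIF3C (0.73 ± 0.16) and EIF3D (0.64 ± 0.10) also had higher effects later. EIF4A2, with an effect of 0.98 ± 0.13 at 6 h and 1.16 ± 0.13 at 16 h, had a difference of 0.17 ± 0.19, adjusted p = 0.58, not called. With the ribosomal protein scaling 0 genes had a higher and 34 a lower effect at 16 h in RBE, with equal sums the counts were 7 and 11, and without mitochondrial genes 10 and 8. Under the ribosomal protein scaling the differences of EIF1 and EEF1B2 were 0.11 and 0.01, and those of EEF2K and EIF4G3 stayed called. Without the 3 SNU1079 libraries that stood apart the RBE counts were 21 higher and 9 lower.

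In SNU1079, 9 genes had a higher and 3 a lower effect at 16 h than at 6 h (8.47% and 8.53% of all tested genes). EIF2B2 and EIF4G2 led, at 0.91 ± 0.12, adjusted p = 2.7e-05 and 0.87 ± 0.18, adjusted p = 0.00214, followed by EIF5A2 (0.82 ± 0.20). The DMSO level of EIF5A2 fell between the times, from 995, 1096 and 868 at 6 h to 690, 526 and 659 at 16 h. With YC-1 it was 1037, 1343 and 1318 at 6 h and 1357, 1273 and 1490 at 16 h. EEF2K (-1.0 ± 0.19, adjusted p = 0.00112), EIF4G3 (-0.74 ± 0.25, adjusted p = 0.0418) and EIF4A3 (-0.61 ± 0.14) had lower effects later. The EIF4G3 call was lost without any one of 13 libraries, 9 of SNU1079 and 4 of RBE, with values from -0.79 to -0.53 and adjusted p up to 0.115, and without the 3 libraries that stood apart (-0.44, adjusted p = 0.182). Leaving out SNU1079 YC-1 6 h replicate 1 alone raised the counts to 15 higher and 7 lower, and leaving out all 3 to 17 and 10. Equal sums gave 2 higher and 11 lower, equal sums without mitochondrial genes 4 and 5, and the ribosomal protein scaling 1 and 3. EIF2B2, EIF1, EIF2B1, EIF3C and EIF3D were called with higher later effects in both lines, and EEF2K and EIF4G3 with lower ones. In SNU1079 the EIF1 call (0.50 ± 0.16) was lost without any one of 7 SNU1079 libraries (DMSO 6 h replicates 2 and 3, DMSO 16 h replicates 1 and 3, YC-1 6 h replicates 1 and 2 and YC-1 16 h replicate 1), with values from 0.37 to 0.51 and adjusted p up to 0.0819. The EIF3D call there (0.37 ± 0.10) was lost without DMSO 6 h replicate 3 (0.33, adjusted p = 0.0555) or YC-1 6 h replicate 2 (0.32, adjusted p = 0.0524). The 6 h and 16 h effects use separate DMSO groups, and a separate time label contradicts the titles from which the times were taken.

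Differences of the YC-1 effect between the lines were called at 16 h, and with all libraries none were called at 6 h. At 6 h, 0 of the 60 genes passed in limma's test (0.773% of all tested genes were higher and 0.767% lower in RBE), and 7 had an unadjusted p under 0.05. Without SNU1079 YC-1 6 h replicate 1, 3 genes were called with a lower effect in RBE, and without the 3 libraries that stood apart 5 were. At 16 h, 7 genes had a higher and 5 a lower effect in RBE than in SNU1079 (6.43% and 8.17% of all tested genes). EIF4A3 and EIF4H had the largest positive differences, 0.69 ± 0.14, adjusted p = 0.00226 and 0.50 ± 0.10, adjusted p = 0.00155. For EIF4A3, RBE levels at 16 h were 4240, 4328 and 3922 with YC-1, against 2584, 2628 and 2377 with DMSO. EIF4A3 values in SNU1079 at 16 h were 3264, 3067 and 2330 with YC-1, against 2812, 2842 and 2726 with DMSO. EIF4A3 was separate in RBE and overlapped in SNU1079. EIF4G3 and EIF2S2 had the largest negative differences, -0.85 ± 0.25, adjusted p = 0.0236 and -0.67 ± 0.17, adjusted p = 0.011, EIF4G3 with the deeper fall in RBE and EIF2S2 with the larger rise in SNU1079.

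The EIF4G3 difference between the lines was lost without RBE DMSO 16 h replicate 3, RBE YC-1 16 h replicate 3, SNU1079 DMSO 16 h replicate 2 or SNU1079 YC-1 16 h replicate 3, with values from -0.81 to -0.64 and adjusted p between 0.0589 and 0.0704. The count of 12 was 6 without RBE DMSO 16 h replicate 3, RBE YC-1 16 h replicate 1 or SNU1079 DMSO 16 h replicate 2, and 7 without SNU1079 YC-1 16 h replicate 3. Without the 3 libraries that stood apart it was 23, 14 of them higher in RBE. Equal sums, with or without mitochondrial genes, gave 9 higher and 4 lower, and the ribosomal protein scaling 0 and 18, at 0.26 for EIF4A3 and 0.07 for EIF4H. EIF3A (-0.50 ± 0.13) kept its difference between the lines in each leave-one-out fit, although its SNU1079 DMSO level was lower at 16 h than at 6 h. EIF4G2 (-0.63 ± 0.18) lost it without SNU1079 DMSO 16 h replicate 1 or YC-1 16 h replicate 3 (-0.50 in both, adjusted p = 0.0555 and 0.0501), and EIF3L (0.49 ± 0.13) without RBE DMSO 16 h replicate 3 or YC-1 16 h replicate 1 (0.41 and 0.45, adjusted p = 0.0619 and 0.0504). The other called differences, EEF2 (-0.61 ± 0.20), EIF2B3 (0.47 ± 0.14), EIF5A (0.46 ± 0.14), EIF3F (0.43 ± 0.13) and EIF3I (0.35 ± 0.11), were lost without any one of 17, 7, 6, 6 and 10 libraries, with adjusted p up to 0.137, 0.0723, 0.0695, 0.0948 and 0.0771. EIF1 (0.02 ± 0.16, adjusted p = 0.953), EIF5 (-0.28 ± 0.16, adjusted p = 0.259), EIF4E (-0.01 ± 0.31, adjusted p = 0.985) and EEF2K (-0.39 ± 0.19, adjusted p = 0.171) did not pass at 16 h, which does not show that the lines responded alike. The EEF2K difference passed without RBE YC-1 16 h replicate 3 (-0.55, adjusted p = 0.0407).

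The lines themselves also differed without YC-1. In DMSO, averaged over both times, 26 genes were higher and 16 lower in RBE than in SNU1079, where 35% and 32.1% of all tested genes were. EIF4E3 (3.27 ± 0.25), EIF1AX (2.27 ± 0.15), EIF3J (1.41 ± 0.16), EIF4G2 (1.36 ± 0.09) and EEF1AKMT2 (1.33 ± 0.15) had the largest positive differences of the genes with values given, and EEFSEC (-1.83 ± 0.15) and EIF5A2 (-1.09 ± 0.10) the largest negative ones. EEF1A1 was 0.96 ± 0.07 higher in RBE on the log2 scale, whereas EIF4A1 (-0.52 ± 0.05), EIF4G1 (-0.48 ± 0.07) and EIF2S1 (-0.64 ± 0.09) were lower. EIF1 (-0.19 ± 0.08), EIF5 (0.38 ± 0.08) and EEF2K (-0.32 ± 0.09) also differed between the lines. The EIF1 call was lost without any one of 7 DMSO libraries (-0.19 to -0.16, adjusted p = 0.0589 to 0.0936). DMSO at 16 h against DMSO at 6 h gave 0 calls in RBE in limma's test (0.0056% of all tested genes were higher and 0.0392% lower, and 3 of the 60 had an unadjusted p under 0.05). In SNU1079 it gave 0 higher and 3 lower (3.82% and 4.75% of all tested genes), EIF5A2 (-0.66 ± 0.14), EIF1AD (-0.59 ± 0.11) and EIF3A (-0.37 ± 0.09). The EIF3A call was lost without DMSO 16 h replicate 2 or DMSO 6 h replicate 1 (-0.36 to -0.33, adjusted p = 0.0513 to 0.0673).

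Genes that control these factors were read from lists drawn up with earlier results of these data known, in the deposited scaling. The counts here and in the following paragraphs stand beside the shares of all tested genes. Of these, 11.6% rose and 12.4% fell in RBE at 6 h, with 27.3% and 26.6% at 16 h. In SNU1079, 14% rose and 14.2% fell at 6 h, with 28.7% and 25.8% at 16 h. Of 7 genes for eIF2 kinases, phosphatase subunits and ATF4, 2 rose and 1 fell in RBE at 6 h, 2 and 4 in RBE at 16 h, 2 and 1 in SNU1079 at 6 h, and 3 and 3 in SNU1079 at 16 h. PPP1R15A, which directs a phosphatase to eIF2, rose by 2.65 ± 0.13 (6 h) and 3.33 ± 0.13 (16 h) in RBE and 2.22 ± 0.13 (6 h) and 2.40 ± 0.13 (16 h) in SNU1079. EIF2AK4, the kinase that senses uncharged tRNA, fell in all 4 comparisons, with values at 16 h of -0.80 ± 0.14 in RBE and -1.08 ± 0.14 in SNU1079. EIF2AK3, the kinase of the endoplasmic reticulum, fell at 16 h in both lines (-1.15 ± 0.19 in RBE and -0.74 ± 0.19 in SNU1079). ATF4, a transcription factor made when eIF2 is phosphorylated, had a lower effect in RBE than in SNU1079 at 6 h (-1.12 ± 0.14, adjusted p = 9.05e-05) and at 16 h (-0.76 ± 0.14, adjusted p = 0.00092), with -0.49 ± 0.10 in RBE at 16 h and 0.27 ± 0.10 in SNU1079 at 16 h, 1.04 ± 0.10 in SNU1079 at 6 h, and -0.08 ± 0.10, not called, in RBE at 6 h.

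Of 15 genes of mTORC1 signalling to translation, 4 rose and 4 fell in RBE at 6 h, 5 and 5 in RBE at 16 h, 4 and 3 in SNU1079 at 6 h, and 6 and 6 in SNU1079 at 16 h. RPTOR, the substrate-binding subunit of mTORC1, fell by 2.56 and 3.43 in RBE at 6 h and 16 h and by 2.74 and 2.38 in SNU1079 (log2, SE 0.31 each). SESN2, a stress-induced inhibitor of mTORC1, rose by 1.81 ± 0.14 in RBE and 2.03 ± 0.14 in SNU1079 at 6 h and by 1.34 ± 0.14 and 0.88 ± 0.14 at 16 h. DEPTOR, another inhibitor, fell at 16 h (-1.87 ± 0.55 in RBE and -1.91 ± 0.55 in SNU1079). It lay near the floor, at 2.23 to 6.47 in RBE with YC-1, against 12.7 to 17.7 with DMSO. In SNU1079 it was at 0.915 to 7.95 with YC-1, against 8.22 to 18.3 with DMSO. Its fold changes thus depend on the 1 added to each value. TSC2, which restrains the mTORC1 activator RHEB, rose in SNU1079 at 16 h (1.45 ± 0.18) and stood at 0.29 ± 0.18, not called, in RBE. Hypusine and diphthamide synthesis, which modify eIF5A and eEF2, gave 1 rise of 8 genes in RBE and 0 calls in SNU1079 at 6 h, 4 rises in RBE at 16 h, and 4 rises and 1 fall in SNU1079 at 16 h. DOHH, the last enzyme of hypusine synthesis, rose by 1.43 ± 0.36 in RBE and 2.20 ± 0.36 in SNU1079 at 16 h, and DPH2, of diphthamide synthesis, by 0.70 ± 0.16 and 1.18 ± 0.16.

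Poly(A) binding, termination and recycling gave, of 9 genes, 0 calls in RBE and 1 fall in SNU1079 at 6 h, 1 rise and 3 falls in RBE at 16 h, and 2 rises and 1 fall in SNU1079 at 16 h. PABPC1, the main poly(A)-binding protein, rose in SNU1079 at 16 h (1.04 ± 0.10) and stood at 0.16 ± 0.10, not called, in RBE. PAIP2B, an inhibitor of PABPC1, fell at 16 h in RBE (-0.80 ± 0.17) and in SNU1079 (-1.61 ± 0.17). Of 5 genes for reinitiation and scanning helpers, 1 fell in RBE at 6 h, 1 rose and 3 fell in RBE at 16 h, 0 were called in SNU1079 at 6 h and 2 fell in SNU1079 at 16 h, with ABCF1 at -0.93 ± 0.08 and -0.25 ± 0.08 at 16 h. Translation factors of mitochondria gave, of 9 genes, 1 rise and 1 fall at 6 h in each line, and at 16 h 2 and 2 in RBE and 3 and 2 in SNU1079. MTRF1L, a release factor, rose in all 4 comparisons (0.80 ± 0.14 in RBE and 1.09 ± 0.14 in SNU1079 at 16 h), and TSFM, the exchange factor of the mitochondrial EF-Tu, fell in all 4 (-0.83 ± 0.14 and -1.23 ± 0.14).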

How the data were processed

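RNA from 24 cultures was sequenced, 3 libraries in each of 8 groups, with a stranded mRNA kit per the labels. The authors deposited 1 table of normalised counts, a signal per gene and library for 57820 rows, and reads were aligned with STAR and normalised with DESeq2 against hg38, per the submitters' processing notes. The sources used here name no version, counter, strand setting or annotation. Whole reads could not be recovered from the values, so no count model was run, and library sums of 19006000 to 27009000 are sums of the normalised signal, not depth.

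Groups and times were taken from the sample titles. A separate label for treatment time gives 16 h for all DMSO and 6 h for all YC-1 libraries and contradicts them, so pooling the times was an alternative. Values were tested as log2(value + 1) with limma 3.58.1 in R 4.3.3, with an intensity trend, 1 mean per group, all 24 libraries (16 residual degrees of freedom) and Benjamini-Hochberg adjustment over the 17860 genes with at least 10 in at least 3 libraries. Genes were called at an adjusted p under 0.05. Fold changes on this scale understate those of low genes. Ratios of genes within a library were compared by the exact two-sided permutation test. Coordinates, spans and transcript lengths are from GENCODE 29 (GRCh38), matched by Ensembl gene identifier, and promoters are from RefSeq, matched by symbol. Same-numbered libraries were not treated as pairs. The fits were tested on simulated data with 1 spread per gene shared by all groups. That test does not cover groups of unequal spread. Plots use matplotlib 3.10.9 (Python 3.11.15).

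The 60 genes and all lists were chosen with earlier results of these data known. Values in every library are given for the 3 highest and 3 lowest called genes of each comparison of YC-1 with DMSO, the 2 highest and 2 lowest of each difference of effects, the 3 genes of highest level per kb, and EIF4EBP1, EIF4E, EIF2S1, EEF1A1 and EEF2. From other lists at most 4 called genes are named, by largest change. Further genes were named after their values were seen. Alternatives were other pseudocounts, filters, scalings, subsets of libraries, each library left out in turn, a replicate block, a fold minimum and both times pooled.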

Additional observations from a re-analysis of the deposited data

Results flagged for a closer look

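The effect of YC-1 differed between the times or between the lines by limma's test of the difference for the following genes, which had the largest called differences in each direction. In RBE, effects at 16 h exceeded those at 6 h for EIF1 (log2 difference 1.0 ± 0.16 SE, adjusted p = 0.000215) and EEF1B2 (0.90 ± 0.14, adjusted p = 0.000231), and were lower for EEF2K (-1.54 ± 0.19, adjusted p = 1.75e-05) and EIF4G3 (-1.32 ± 0.25, adjusted p = 0.000906). In SNU1079 it was higher at 16 h for EIF2B2 (0.91 ± 0.12, adjusted p = 2.7e-05) and EIF4G2 (0.87 ± 0.18, adjusted p = 0.00214), and lower for EEF2K (-1.0 ± 0.19, adjusted p = 0.00112) and EIF4G3 (-0.74 ± 0.25, adjusted p = 0.0418). At 16 h the effect was higher in RBE than in SNU1079 for EIF4A3 (0.69 ± 0.14, adjusted p = 0.00226) and EIF4H (0.50 ± 0.10, adjusted p = 0.00155), and lower for EIF4G3 (-0.85 ± 0.25, adjusted p = 0.0236) and EIF2S2 (-0.67 ± 0.17, adjusted p = 0.011). In the leave-one-out fits EIF4G3 in SNU1079 was the least stable of these, since it lost its call without any one of 13 libraries. With the ribosomal protein scaling, the differences between the times of EIF1 and EEF1B2 in RBE shrank and were not called. The same held for the differences of EIF4A3 and EIF4H between the lines.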

How the results depend on the processing

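The 65 followed pairs of a gene and a comparison were all called in the main fit, most for genes picked by their large changes. Keeping a call was thus favoured, and no call could be gained. Called genes outside these pairs also lost calls, such as EIF2A in RBE at 16 h. Of the 65, all kept direction and call with pseudocounts of 0.5 and 10, a filter of at least 50, an equal upper quartile and a replicate block, as did 1529 values with 1 library left out, where 31 lost the call. These losses came from 5 of the 65 pairs. Many of the fits left out a library outside the groups compared, which leaves the fold change as it was and favours keeping the call. The scaling to ribosomal protein genes changed most: 8 turned and 18 lost the call. Turned in RBE at 16 h were EIF4G2 (-0.20), EIF4A3 (-0.22), EIF4H (-0.36), EIF2S2 (-0.49), EEF1G (-0.16), EIF4A1 (-0.68) and EIF2S1 (-0.31), and in SNU1079 at 16 h EIF2S1 (-0.0537). With equal sums EIF4A1 turned in RBE at 16 h (-0.0657). The cause was not tested.

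Counts of genes called also moved. In RBE at 6 h, 14 became 9 with the ribosomal protein scaling, 29 with only the 12 libraries of the line, 23 with only the compared libraries, 25 without the 3 SNU1079 libraries that stood apart, 41 with the times pooled and 8 with a minimum change of 0.58. In SNU1079 at 6 h, 24 became 14 with the ribosomal protein scaling and 11 with the minimum change. In SNU1079 at 16 h, 42 became 27 with only the compared libraries and 25 with the minimum change. For the difference of times in RBE, 18 became 34, 33, 33, 30 and 11 with the ribosomal protein scaling, the libraries of the line, the compared libraries, without the 3 libraries and with the minimum change. In SNU1079, 12 became 4, 4, 4 and 27 with the first 4 of these settings. For the difference of lines, 0 at 6 h became 5 without the 3 libraries, and 12 at 16 h became 3 with the compared libraries, 23 without the 3 and 5 with the minimum change. DMSO at 16 h against 6 h in SNU1079 gave 3, and 1 with the compared libraries and 5 without the 3. The lines in DMSO gave 42, and 23 with the minimum change.

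With each library left out in turn, the counts ranged from 10 to 17 in RBE at 6 h, 39 to 46 in RBE at 16 h, 18 to 27 in SNU1079 at 6 h and 40 to 45 in SNU1079 at 16 h. They ranged from 15 to 23 for the times in RBE, 9 to 22 in SNU1079, 0 to 3 for the lines at 6 h and 6 to 17 at 16 h, 0 to 0 for DMSO in RBE, 2 to 3 in SNU1079 and 39 to 45 for the lines in DMSO. The 22 came without SNU1079 YC-1 6 h replicate 1.

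Libraries that share a replicate number did not deviate together (correlations of their deviations from -0.147 to 0.188), so the numbers were not used as pairs. With the replicate block the counts were 15, 44, 25 and 42 in the 4 comparisons in the order above, 19 and 11 for the times, 0 and 10 for the lines, 0 and 3 for DMSO and 38 for the lines in DMSO. Read depth is unknown, so what depth limits could not be given.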
